A study of Mus musculus with 2 samples.

Results

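The transcripts of 5 secreted proteins, Saa3, Wfdc17, Wfdc21, Slpi and Lrg1, were followed in single cells of mice bearing 4T1 liver metastases. They were taken by symbol, 5 of the 32285 gene rows in each of both matrices, and had been chosen by their UMI levels in these cells and groups, with the differences already known, so each difference below is a description and not a test. 4T1 is a mouse mammary carcinoma line that grows in BALB/c mice and is known for driving an expansion of neutrophils. All mice were female BALB/cAnNCrl of 7 to 8 weeks, all carried the tumor, and all groups received a hepatic arterial infusion, of vehicle (hashtag A0301) or of CBL0137 at a dose labelled low (A0305) or high (A0310). CBL0137 is a curaxin, a compound that disturbs the binding of DNA to histones. The amounts behind the labels low and high are not defined in those labels, cells were taken 5 days later, and each group was a pool of 2 mice. The methods list the A0305 barcode but name other hashtags for staining. With 1 pool per group and library there is no replicate, so no test and no p-value is given. The methods describe spleens and livers of pooled mice. Both libraries of a group may therefore come from the same mice, and a match between libraries may not be an independent repeat. All intervals are exact, at 95%, and cover counting error alone.

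Saa3 encodes serum amyloid A3, an acute-phase protein made outside the liver as well as in it, under the control of interleukin-1, interleukin-6 and the transcription factors they act through. Slpi encodes the secretory leukocyte protease inhibitor, which blocks neutrophil elastase and cathepsin G. Wfdc17 and Wfdc21 encode small secreted proteins with the WAP four-disulfide core fold that Slpi also has. Lrg1 encodes leucine-rich alpha-2-glycoprotein, a serum protein that neutrophils store in granules and that acts on endothelial cells through TGF-beta receptors. Saa3 and Lrg1 are not protease inhibitors, so what the 5 share is that their products are secreted, not an activity. Saa3 has near relatives in Saa1 and Saa2, and reads of such copies can be split in counting, so its values carry that uncertainty.

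In GRCm38 (mm10), with GENCODE M21 positions, Saa3 (ENSMUSG00000040026) lies on the minus strand at chr7:46711998-46715700. Wfdc17 (ENSMUSG00000069792, chr11:83703991-83706268) and Wfdc21 (ENSMUSG00000051748, chr11:83746940-83752642) are neighbors on the plus strand, 40671 bases apart. Slpi (ENSMUSG00000017002) lies on the minus strand at chr2:164354070-164389095 and Lrg1 (ENSMUSG00000037095) on the minus strand at chr17:56119678-56122001. The stretches before the annotated starts of 4 of the genes, from the RefSeq promoters of GRCm38.p6, are shown because the genes had unlike patterns across cells. They were searched on both strands for C/EBP letters (TTNNGCAA), STAT letters (TTCNNNGAA), NF-kB letters (GGG and CC with any 5 bases between) and AP-1 letters (TGANTCA), and capitals mark a match. The RefSeq start of Slpi lies inside its GENCODE span.
Saa3, chr7:46715701-46715926, minus strand, 226 bases: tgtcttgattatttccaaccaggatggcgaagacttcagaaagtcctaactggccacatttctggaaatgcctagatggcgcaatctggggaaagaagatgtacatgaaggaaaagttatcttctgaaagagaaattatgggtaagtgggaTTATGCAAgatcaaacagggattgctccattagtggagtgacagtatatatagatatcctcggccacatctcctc
Wfdc17, chr11:83703806-83703990, plus strand, 185 bases: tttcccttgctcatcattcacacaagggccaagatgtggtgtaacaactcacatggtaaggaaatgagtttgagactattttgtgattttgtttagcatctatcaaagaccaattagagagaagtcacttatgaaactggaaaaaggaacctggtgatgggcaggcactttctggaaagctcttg
Slpi, chr2:164356508-164356757, minus strand, 250 bases: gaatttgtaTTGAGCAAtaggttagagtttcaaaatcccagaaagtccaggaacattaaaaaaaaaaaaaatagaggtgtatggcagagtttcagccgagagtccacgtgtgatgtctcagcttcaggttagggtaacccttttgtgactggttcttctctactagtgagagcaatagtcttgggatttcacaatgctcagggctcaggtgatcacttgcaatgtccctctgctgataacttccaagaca
Lrg1, chr17:56122002-56122196, minus strand, 195 bases: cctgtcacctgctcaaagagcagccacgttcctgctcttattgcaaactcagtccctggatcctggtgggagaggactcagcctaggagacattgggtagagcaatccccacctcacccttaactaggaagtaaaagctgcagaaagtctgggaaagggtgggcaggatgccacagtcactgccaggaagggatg
The stretches of Saa3, Wfdc17 and Lrg1 end where the first annotated exon begins, so that the last 24, 65 and 55 bases before their RefSeq starts are not shown. The Saa3 stretch held a C/EBP match whose first base lay 75 bases before its end, and 99 bases before the RefSeq start. The Slpi stretch held one 241 bases before its end, which is also the RefSeq start. The printed stretches of Wfdc17 and Lrg1 held none of the 4 motifs, while the unprinted bases of Lrg1 held 1 NF-kB match, 34 bases before the RefSeq start. Of 32851 RefSeq promoters, 9.56% held the C/EBP letters in the whole 250 bases before the RefSeq start, 7.02% the STAT letters, 45.8% the NF-kB letters and 6.75% the AP-1 letters. A match of letters is not a binding site, and none was tested.

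The library labelled liver held 9591 barcodes, of which 3103 vehicle, 3194 low dose and 2138 high dose barcodes carried 1 hashtag, with median UMIs (unique molecular identifiers, each standing for 1 captured transcript) of 4497, 4663 and 4794. Of the 4830 barcodes of the library labelled spleen, 822, 1301 and 865 fell to the groups, with medians of 5107.5, 4694 and 7930. Transcripts of liver cells went against these labels. Clec4f, a Kupffer cell gene, was at 0 in the liver-labelled library and at 124.5 CPM (UMIs of a gene per 1000000 UMIs of all genes) in the spleen-labelled library, and Alb was at 0 and 19.4 CPM. The libraries are therefore called by their labels, with no tissue drawn from them, and results are given in each. The methods describe cells taken with CD11b beads and the labels leukocytes from a density gradient, and both libraries also held T and B cells. The libraries shared 15 barcodes, 6 of them assigned to a group. All barcodes had at least 500 UMIs. Cell classes were named from marker genes, the 5 genes were kept out of the features used for clustering, and 4 of 25 clusters and 3 of 18 stayed unnamed.

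Across the named classes, with all groups together, Wfdc17, Wfdc21 and Lrg1 were highest in neutrophil-like cells of both libraries. Saa3 was spread over neutrophils, monocytes and, mostly at the low dose, macrophages. Slpi was highest in small classes that were not neutrophils. Over all groups, Wfdc17 stood at 14882 CPM in the 2918 neutrophil-like cells of the liver-labelled library and at 13803 CPM in the 990 of the spleen-labelled library. By summed UMIs of assigned barcodes it ranked 8 among 19877 genes in the former. After Wfdc17 came Wfdc21, at 6232 and 6420.5 CPM, then Saa3 at 2693 and 2824 CPM, Lrg1 at 2338 and 2092 CPM and Slpi at 396 and 374 CPM. This order was the same in both libraries. The tags count molecules at 1 end of a transcript, so no correction for gene length was made, and levels of different genes depend on how well each is captured.

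**Figure D1:**
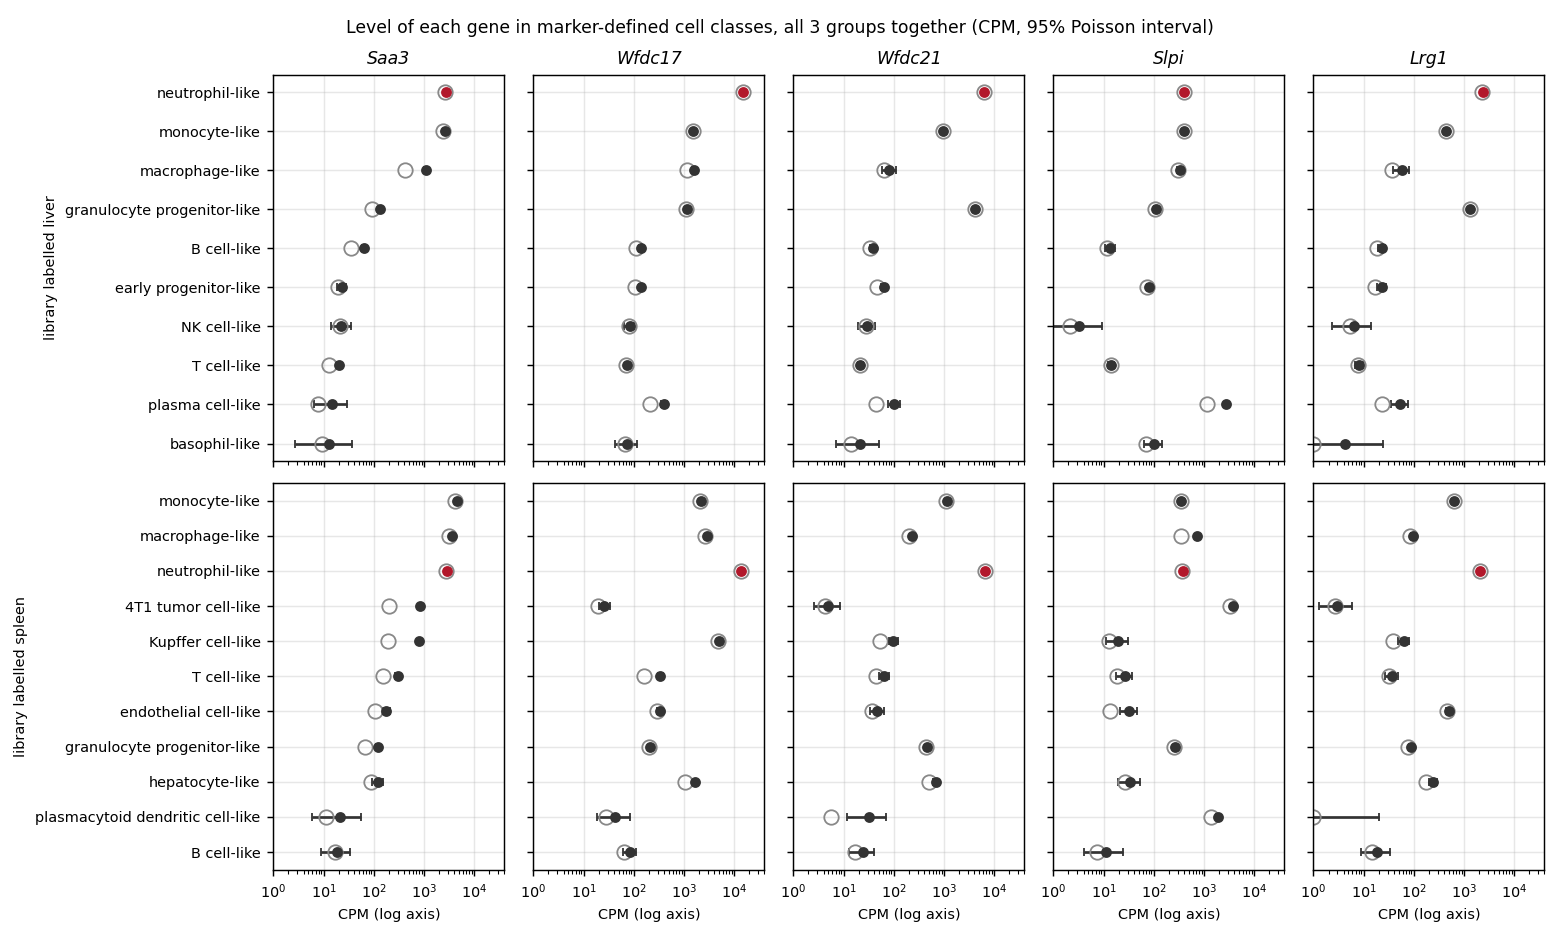
Levels of the 5 genes in marker-named cell classes, in CPM of the summed UMIs of all groups on a log axis, for each library. Bars on the points are exact counting intervals, open circles leave out the barcode with the most UMIs of the gene, and values under 1 CPM are drawn at 1. Wfdc17, Wfdc21 and Lrg1 peak in neutrophil-like cells, at 14882, 6232 and 2338 CPM in the liver-labelled library.

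Over all groups together, Saa3 in monocyte-like cells nearly equalled or passed its level in neutrophil-like cells. It stood at 2657 CPM (2616 to 2699) in monocyte-like and at 1077 CPM in macrophage-like cells of the liver-labelled library. A single barcode held much of the latter, and without it the level was 418 CPM. In the spleen-labelled library Saa3 was at 4564 CPM (4477 to 4652) in monocyte-like and 3551 CPM (3490.1 to 3614) in macrophage-like cells. Both were above the neutrophil-like 2824 CPM. Of the 12750 Saa3 UMIs in those macrophage-like cells, 10962 came from the low dose group. Among vehicle cells alone, neutrophil-like cells ranked 2 rather than 3 for Saa3 in that library. There monocyte-like cells were at 2089 CPM and neutrophil-like cells at 1927 CPM. Vehicle monocyte-like cells of the liver-labelled library were at 1743 CPM, below the 3907 CPM of neutrophil-like cells. Vehicle macrophage-like cells were at 188 CPM in the liver-labelled and 141 CPM in the spleen-labelled library, below neutrophil-like cells in both. Over all groups, neutrophil-like cells, the larger class, held 79.9% of the Saa3 UMIs of named classes in the liver-labelled library. In the spleen-labelled library they held 39.2%, macrophage-like cells 28.5% and monocyte-like cells 23.3%.

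The WAP genes differed from each other outside neutrophils. Wfdc21 reached 4241 CPM in granulocyte progenitor-like cells of the liver-labelled library, where Wfdc17 was at 1167 CPM. Conversely, Kupffer-like cells (resident liver macrophages, 83 cells, library labelled spleen) had Wfdc17 at 4999 CPM (4853 to 5148) and Wfdc21 at 98.6 CPM. Wfdc17 in these cells was at 5331, 5107 and 4929 CPM in the vehicle, low dose and high dose groups, with 13, 30 and 40 cells. The vehicle interval, 4721 to 5999 CPM, covers both dose values. Macrophage-like cells had Wfdc17 at 1554 CPM in the liver-labelled library and 2847 CPM in the spleen-labelled library. In vehicle, low dose and high dose cells it was at 884, 1769 and 2547 CPM, and at 1351, 3319 and 3148 CPM. High dose log2 ratios of Wfdc21, Slpi and Lrg1 to vehicle were 1.47, 1.56 and 1.32 in the spleen-labelled class, with much Slpi in 1 barcode. They were -2.83, -0.14 and -2.51 in the liver-labelled class. There Wfdc21 and Lrg1 held 1 UMI each at the high dose, against 15 and 12 in vehicle. The Lrg1 interval, -7.92 to 0.25, covers no difference. Neutrophil transcripts also differed among these groups, and their part was not tested. Hepatocyte-like cells of the spleen-labelled library had Wfdc17 at 1665 CPM and Wfdc21 at 687 CPM, but these barcodes also held the neutrophil transcripts S100a8 and S100a9 at 20554 CPM in sum.

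Lrg1 outside neutrophils was highest in granulocyte progenitor-like cells of one library. Granulocyte progenitor-like cells had it at 1319.6 CPM in the liver-labelled library but at 89 CPM in the spleen-labelled library. These classes were unlike, with S100a8 and S100a9 together at 257556 CPM in the former and 11086 CPM in the latter. Elane, Prtn3 and Fcnb led the liver-labelled class, and Ctsg, Mpo and Mcpt8 the spleen-labelled one. Their Lrg1 levels therefore do not compare like cells. Monocyte-like cells had Lrg1 at 442 and 641 CPM. An unnamed cluster of the spleen-labelled library, led by Cebpe, Fcnb, Camp and Ngp, had Lrg1 at 1243 CPM, Wfdc21 at 4218 CPM and Saa3 at 23.5 CPM. Endothelial-like cells, found in the spleen-labelled library alone, had it at 492 CPM (447 to 540.2) in 247 cells. In those cells Lrg1 was at 569 CPM (426 to 745) in vehicle, 691 CPM (600.3 to 791) at the low dose and 356 CPM at the high dose, where the upper bound was 412 CPM. The low dose interval overlaps that of the vehicle, while the high dose bound lies below both. No Lrg1 UMI was found in 25 plasmacytoid dendritic-like cells.

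Slpi, by contrast, was highest in tumor cells of the spleen-labelled library. In 82 4T1-like cells, marked by keratins and Epcam, Slpi was at 3740.3 CPM (3667 to 3815), against 374 CPM in neutrophil-like cells, and 80.5% of these deeply sequenced cells held a UMI of it. These cells held 57.4% of the Slpi UMIs of all named classes in the library. By group Slpi was at 3131 CPM in vehicle (16 cells), 6227 CPM at the low dose (17 cells) and 3317 CPM at the high dose (49 cells). Without the barcode with most Slpi UMIs in each group the values were 2449, 2712 and 3053 CPM, so the low dose value rested on 1 barcode. Plasmacytoid dendritic-like cells had Slpi at 1907 CPM (1713 to 2117) in 25 cells, and at 1380.4 CPM without 1 barcode. Plasma cell-like cells of the liver-labelled library had 2712 CPM in 22 cells, of which 1 barcode held 62.1%, leaving 1143 CPM without it. In macrophage-like cells of the spleen-labelled library Slpi was at 739 CPM and, with 1 barcode left out, at 356 CPM, close to the level in neutrophil-like cells.

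Transcripts free in the droplets can give UMIs in any barcode. After thinning each cell to 500 UMIs, so that depth does not set the share, 0.489% of T cell-like cells of the liver-labelled library held a Saa3 UMI, against 37.9% of neutrophil-like cells. Median UMIs were 4869 and 5513, and unthinned shares 6.48% and 51.8%. Wfdc17, the most abundant, had a share of 3.14% in T cell-like and 91.2% in neutrophil-like cells. In the spleen-labelled library the Wfdc17 shares were 5.78% and 88.3%, at medians of 4050 and 4404 UMIs. Thinned shares in the T cell-like cells were thus far under those in neutrophils for these genes. The ratio of a gene to S100a8 and S100a9 gives another reading. Wfdc21 came to 18.5 UMIs per 1000 UMIs of S100a8 and S100a9 in neutrophil-like cells and to 17.9 in T cell-like cells of the liver-labelled library, and Lrg1 to 6.93 and 6.7. The ratios of the other 3 genes were higher in T cell-like cells there, with Saa3 at 7.98 and 16.5, Wfdc17 at 44.1 and 61.4 and Slpi at 1.17 and 11.8. All 5 were higher in T cell-like cells of the spleen-labelled library, with Saa3 at 130, Wfdc17 at 148 and Lrg1 at 15.9. Lrg1 in endothelial-like cells came to 366 per 1000 against 6.58 in neutrophil-like cells of that same library, Wfdc17 in Kupffer-like cells to 981, and Saa3 in macrophage-like cells to 807, far from the neutrophil ratio.

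At the high dose Saa3 was the gene of the 5 that stood apart in neutrophil-like cells. In the liver-labelled library Saa3 was at 3907 CPM (3871 to 3942) in 1429 vehicle cells, 2208 CPM (2180.1 to 2236) in 1290 low dose cells and 383 CPM (363 to 402) in 199 high dose cells. Counts of the spleen-labelled library put it at 1927 CPM (1864 to 1992) in 302 vehicle cells, 4511 CPM (4436 to 4587) in 574 low dose cells and 248 CPM (223 to 276) in 114 high dose cells. Both high dose pools were thus the lowest of their library, and neither counting interval meets that of another group. The low dose pool lay below vehicle in one library and above it in the other. Between the vehicle pools Saa3 was itself about 2-fold higher in the liver-labelled library.

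As a log2 ratio to vehicle, Saa3 was -3.35 (-3.43 to -3.28) at the high dose in the liver-labelled library, 10.2-fold lower, and -2.96 (-3.12 to -2.79) in the spleen-labelled library. It was thus 1 of 5 genes at least 2-fold lower in each library, where 19.2% of 10360 genes with at least 10 UMIs were so in the liver-labelled library and 10.1% of 7460 in the spleen-labelled library. None of the 5 was at least 2-fold higher, against 1.8% and 5.03% of genes. These shares are background only, since the genes were chosen with this contrast known. The median ratio of the 5 genes was 0.09 in each library, beside -0.39 and -0.08 over all genes tested. At the low dose the Saa3 ratio was -0.82 (-0.85 to -0.80) in the liver-labelled library and 1.23 (1.17 to 1.28) in the spleen-labelled library. None of the 5 genes was past 2-fold in the former, where 1.62% of genes were higher and 4.87% lower. In the latter Saa3 alone was past 2-fold higher, where 4.32% of genes were higher and 4.81% lower. Medians of the 5 genes were 0.15 and 0.23 at the low dose, beside -0.12 and -0.04 over all genes. Both dose comparisons in a library share its vehicle cells.

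**Figure D2:**
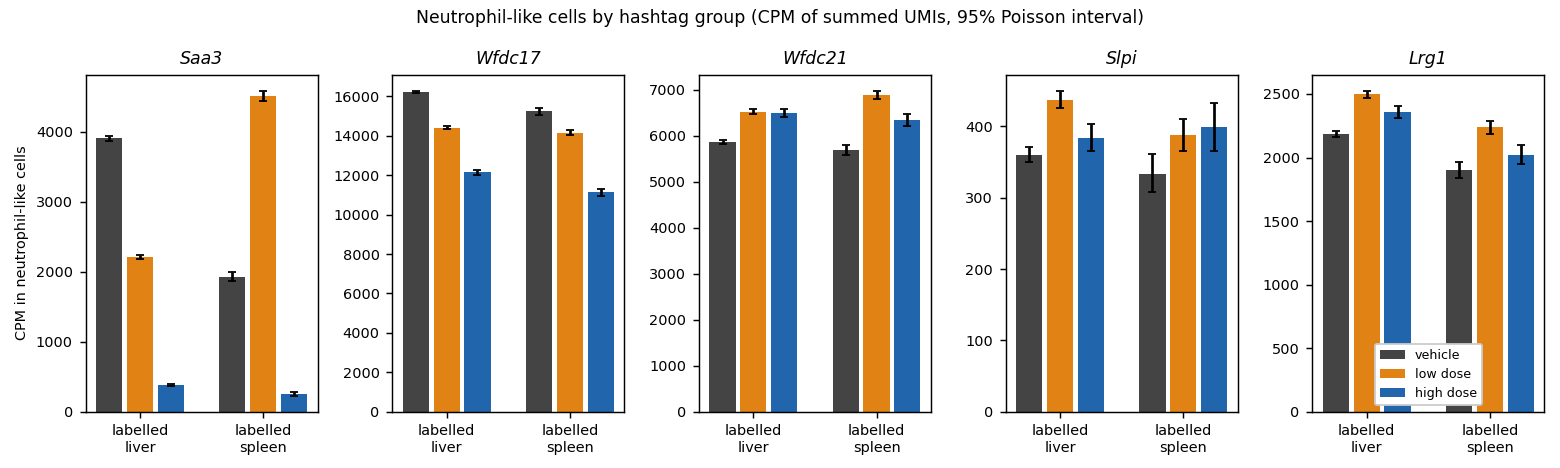
Levels of the 5 genes in neutrophil-like cells by hashtag group and library, in CPM on a separate linear axis for each gene, with exact counting intervals. Saa3 is lowest at the high dose in both libraries, at 383 and 248 CPM, while the other 4 genes stay close together across the groups.

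The other 4 genes differed little. Wfdc17 was at 16220.1, 14415 and 12137 CPM in the vehicle, low dose and high dose groups of the liver-labelled library, and at 15236, 14152 and 11126 CPM in the spleen-labelled library. Its high dose ratios were -0.42 (-0.43 to -0.40) and -0.45, lower in both libraries yet under 2-fold. They turned to 0.13 and 0.02 at vehicle cluster weights, which use only 3 of 6 and 2 of 5 clusters. The clusters left out include 1 with 31.8% of vehicle Wfdc17 UMIs in the liver-labelled library and 1 with 56.4% in the spleen-labelled library. The turn therefore does not cover those clusters. In the spleen-labelled library the ratio was 0.14 with granulocyte progenitor-like clusters added. Wfdc21 was at 5873, 6525 and 6496 CPM and at 5694, 6888 and 6341 CPM, slightly higher in both dose groups of both libraries, although the liver-labelled high dose ratio of 0.15 became -0.04 at vehicle cluster weights. Lrg1 was at 2185, 2497 and 2358 CPM and at 1902, 2236 and 2021 CPM, with the same order of groups in each library. Slpi was at 360.4 CPM (349.7 to 371), 438 and 384 CPM (365 to 404) in the liver-labelled library, and at 334, 388 and 399 CPM in the spleen-labelled library. The high dose ratio of Slpi, 0.09 (0.01 to 0.18) in the first of these, turned to -0.17 when the mean over cells of each cell's own CPM was taken. That setting gives shallow cells the same weight as deep ones, and the neutrophil-like cells differed in depth, with median UMIs of 4368, 5712.5 and 18590 in the liver-labelled library and of 3567, 4064.5 and 11408 in the spleen-labelled library.

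At 500 UMIs per cell the share of cells with Saa3 was also lowest at the high dose. In the liver-labelled library a Saa3 UMI was found in 49.4%, 29.5% and 10.1% of the vehicle, low dose and high dose neutrophil-like cells, and in the spleen-labelled library 37.7%, 36.8% and 7.89%. Unthinned shares were 62.1%, 43.3% and 33.2%, and 48.3%, 46.5% and 26.3%. The spleen-labelled low dose share lay within the counting interval of vehicle although its CPM was higher, so no order is read between them. For Wfdc21 the share was 78.3%, 84.8% and 93.5% in the liver-labelled library and 80.1%, 86.8% and 91.2% in the spleen-labelled library. Wfdc17 was found in 83.3% to 92.4% of cells in every group, Lrg1 in 55.3% to 71.6% and Slpi in 16.9% to 24.6%.

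Within a group Saa3 was unevenly spread over the cells. The median cell had 12.7 Saa3 UMIs per 10000 in the vehicle group of the liver-labelled library and 0 in the other 5 pools. The cell at the 90th percentile had 294, 163 and 6.06 per 10000 in the vehicle, low dose and high dose groups of the liver-labelled library, and 136, 246 and 10 in the spleen-labelled library. The tenth of cells richest in Saa3 held 48.3% of its UMIs in vehicle, 67.4% at the low dose and 92.7% at the high dose in the liver-labelled library. The spleen-labelled shares were 60%, 66.1% and 85.3%, again highest at the high dose. Wfdc21 was far more even. Its 90th percentile was 12.3 times its 10th in vehicle, 8.11 times at the low dose and 1.82 times at the high dose in the liver-labelled library, and 15.5, 6.34 and 1.98 times in the spleen-labelled library. High dose cells were deeper, and their part in this narrowing was not tested.

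Neutrophil-like cells fell into 6 clusters in the liver-labelled library and 5 in the spleen-labelled library, and Saa3 differed among them more than any of the other 4 genes. In the liver-labelled library, over all groups, Saa3 ran from 94.2 CPM in cluster 12, led by the granule genes Camp, Ltf and Ngp of immature neutrophils, to 13969 CPM in cluster 2, led by Il1b, Ccrl2 and Csf1, a span of 148-fold. Cluster 2 was named from 3 raised neutrophil markers, the fewest the naming rule allows, with 0 among its leading genes. Those leading genes also included the histone genes Hist1h2bc and Hist1h4i. Cluster 16 of the spleen-labelled library had 6 raised neutrophil markers and likewise 0 leading. Cluster 5, led by the stefin genes Stfa3 and Stfa2 and by Ly6g, had 308 CPM and cluster 8, led by Prok2, Retnlg and Mmp8, 994 CPM. Cluster 6, led by Il1b, Igfbp6 and Retnlg, had 5189.8 CPM and cluster 4, led by Csta3, Igfbp6 and Csf3r, 6813 CPM. Over the clusters of the library labelled spleen Saa3 was at 176 CPM in cluster 9 (Ltf, Camp, Ngp), 211 CPM in cluster 3 (Stfa3, Stfa2, Ly6g), 4955 CPM in cluster 0 (Il1b, G0s2, Cxcr2), 7846 CPM in cluster 16 (Cxcl3, Hilpda, Ccrl2) and 14812 CPM in cluster 13 (Bcl2l15, Orm1, Il1r2), a span of 84.3-fold. In both libraries the lowest level was thus in the cluster led by Camp, Ltf and Ngp and the next in the cluster led by Stfa3 and Stfa2. Among vehicle cells alone the order was kept in the liver-labelled library, from 37.7 CPM in cluster 12 to 16366 CPM in cluster 2. It was not kept in the spleen-labelled library, where cluster 16 was at 5212 CPM, below cluster 0 at 5591 CPM, and the 2 vehicle cells of cluster 13 held 0 Saa3 UMIs, which allows up to 198 CPM. Over the 4 clusters there with at least 20 vehicle cells the span was 43.1-fold, and the 84.3-fold rests on the low dose cells of cluster 13.

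Each of the other genes had its own profile over these clusters. Wfdc17 rose from 2176 CPM in cluster 12 to 36620.3 CPM in cluster 6 of the liver-labelled library, and from 4678 CPM in cluster 9 to 28457 CPM in cluster 0 of the spleen-labelled library. Slpi was lowest in clusters 12 and 9 as well, at 137 and 203 CPM, and highest in clusters 2 and 16, at 787 and 845 CPM. Wfdc21 went the other way, and was lowest in those clusters 2 and 16, at 2192 and 2754 CPM, and highest in clusters 8 and 13, at 7276 and 8033 CPM. Lrg1 was the most even in both libraries, with a span of 1.4-fold in the liver-labelled library and 2.4-fold in the spleen-labelled library. Over the 11 clusters of both libraries the log2 level (with 10 CPM added) of Saa3 had a Pearson correlation of 0.73 with Slpi, 0.69 with Wfdc17 and -0.12 with Lrg1, and Wfdc21 one of -0.64 with Slpi. These are descriptions, since the clusters of a library share its mice and depth differs among them.

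**Figure D3:**
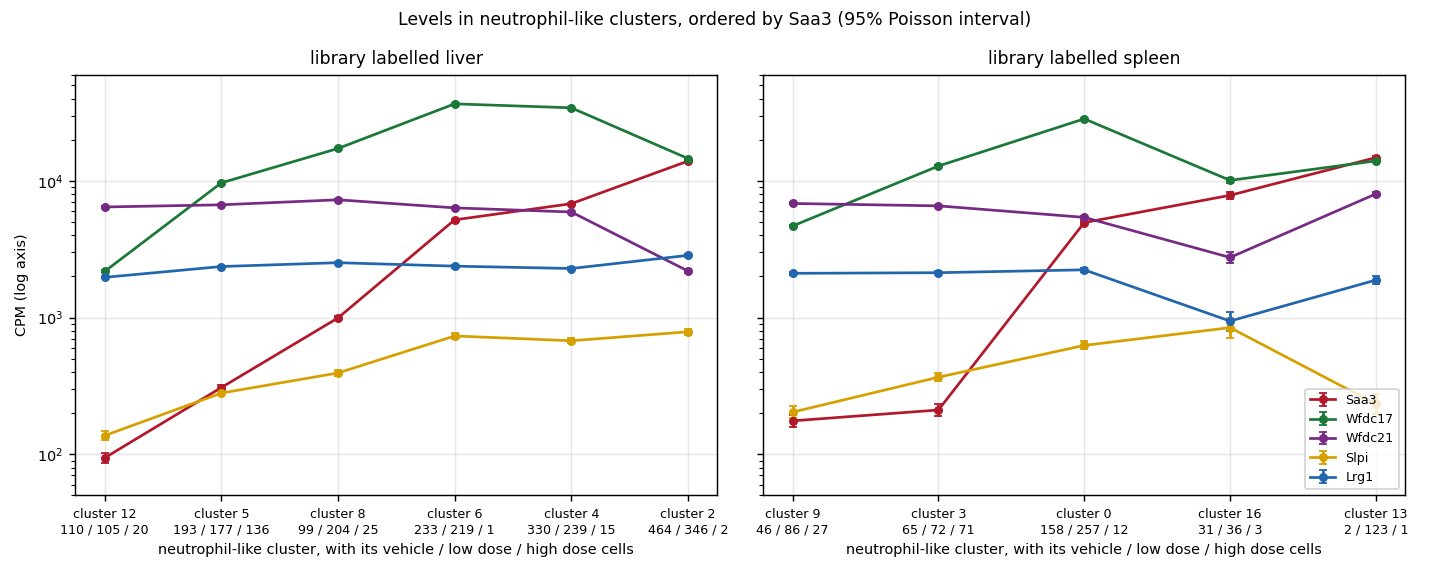
Levels of the 5 genes in each neutrophil-like cluster of both libraries, over all groups, in CPM on a log axis with exact counting intervals. Saa3 spans 148-fold in the liver-labelled library and 84.3-fold in the spleen-labelled library, and Lrg1 1.4-fold and 2.4-fold.

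The groups did not hold the same clusters. In the liver-labelled library the 3 clusters with Saa3 above 4000 CPM (2, 4 and 6, a limit set after seeing the values) took in 71.9%, 62.3% and 9.05% of the vehicle, low dose and high dose neutrophil-like cells. Cluster 5, low in Saa3, held 193 vehicle cells (13.5%) and 136 high dose cells (68.3%). In the spleen-labelled library the 3 clusters above 4000 CPM (0, 13 and 16) held 63.2%, 72.5% and 14% of cells, and cluster 3 had 21.5% of those in vehicle and 62.3% of those at the high dose. In both libraries most high dose neutrophils thus lay in the cluster led by Stfa3 and Stfa2. The clusters richest in Saa3 had few high dose cells, with 2 in cluster 2 and 1 in cluster 6 of the liver-labelled library, so no level is given for them.

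Where a cluster had at least 20 cells of both groups, Saa3 differed less. In cluster 5 of the liver-labelled library it was at 324 CPM in vehicle and 164 CPM at the high dose, a log2 ratio of -0.99 (-1.15 to -0.83). In cluster 8 it was at 1429 and 1029 CPM, a ratio of -0.47. In cluster 12 it was at 37.7 and 11.8 CPM, the latter from 6 UMIs. In cluster 3 of the spleen-labelled library it was at 252 and 177 CPM, a ratio of -0.51 (-0.84 to -0.18), and in cluster 9 at 129.6 and 179 CPM, a ratio of 0.47 (-0.01 to 0.94). So Saa3 was lower at the high dose in 4 of the 5 clusters that could be compared, by less than in the class as a whole. All of these were poor in Saa3, so they do not show the difference within the rich clusters. Cluster 0 of the spleen-labelled library held 41 Saa3 UMIs among 82247 in 12 high dose cells, against 2843 among 508527 in 158 vehicle cells. Cluster 4 of the liver-labelled library held 607 among 151795 in 15 high dose cells, against 14871 among 1705759 in 330 vehicle cells.

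Weighting these clusters by the UMIs of the vehicle group gave a Saa3 ratio of -0.67 over 3 of 6 clusters in the liver-labelled library and of -0.12 over 2 of 5 in the spleen-labelled library. The clusters left out, for want of high dose cells, are those that held most vehicle Saa3. Keeping instead the vehicle level of every cluster and giving the clusters the high dose group's share of UMIs gave -2.42 and -1.76. For Slpi the parts ran in opposite directions, with 0.58 and 0.55 within clusters and -0.61 and -0.25 from the mix of clusters. In cluster 5 of the liver-labelled library Slpi went from 212 to 386 CPM, a ratio of 0.86 (0.73 to 1.00), and in cluster 3 of the spleen-labelled library from 308 to 454 CPM, a ratio of 0.56. Wfdc17 had 0.13 and 0.02 within clusters and -0.58 and -0.38 from the mix. Wfdc21 and Lrg1 stayed between -0.04 and 0.08 within clusters. Which cells a group holds and how much RNA of a gene each cell holds are separated here only as far as the clusters do so.

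**Figure D4:**
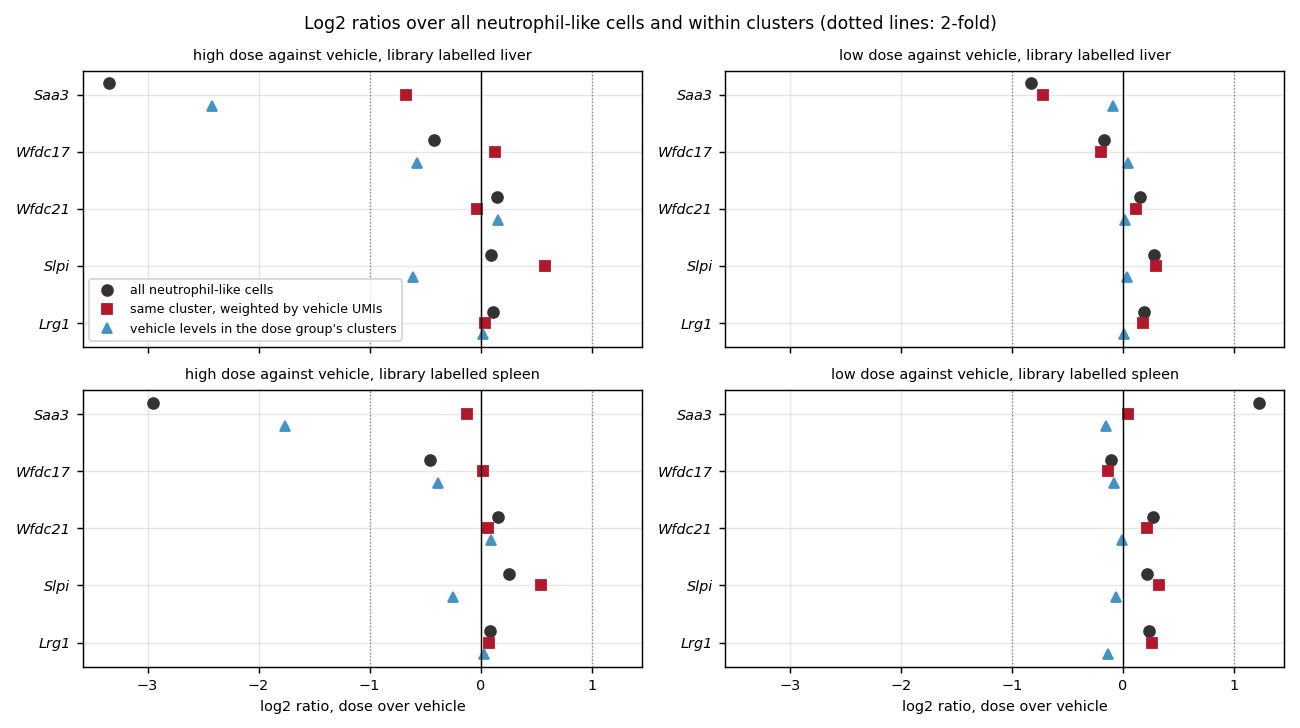
Log2 ratios of each dose to vehicle in neutrophil-like cells for each gene and library, high dose on the left and low dose on the right. They are given as summed over the class, within clusters at the vehicle weights, and with vehicle levels in the dose group's mix of clusters. The within-cluster ratios used 3 of 6 and 2 of 5 clusters at the high dose, and 6 of 6 and 4 of 5 at the low dose. For Saa3 at the high dose the within-cluster ratios are -0.67 and -0.12 and the mix gives -2.42 and -1.76.

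At the low dose the libraries differed in the clusters too. In the liver-labelled library Saa3 was lower than in vehicle in clusters 2, 4, 6 and 8, with ratios of -0.56, -0.90, -1.18 and -0.98, and higher in clusters 5 and 12, at 0.40 and 2.26. The last went from 37.7 to 181 CPM. Cluster 13 of the spleen-labelled library held 123 low dose, 2 vehicle and 1 high dose cells, with Saa3 at 15368 CPM in the low dose cells. It held 61.4% of the Saa3 UMIs of the low dose neutrophils but 21.4% of the cells. Without this cluster the low dose ratio of Saa3 was 0.13 in place of 1.23, so the call rested on it. The cluster is led by Orm1, Il1r2, Il1rn and Saa1 among others, of which Orm1 and Saa1 are acute-phase genes. In cluster 0, the largest, Saa3 was at 5591 CPM in vehicle and 5007 CPM at the low dose, and in cluster 16 at 5212 and 10337 CPM, with 31 and 36 cells. Erythroid transcripts moved with this group, the list of 6 genes coming to 287 CPM in vehicle, 3545 CPM at the low dose and 689 CPM at the high dose neutrophil-like cells of this library, and their part in the result was not tested.

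Markers of macrophages and monocytes summed to at most 215 CPM in the neutrophil-like cells. The 8 macrophage genes summed to 20, 14 and 2.28 CPM in the vehicle, low dose and high dose groups of the liver-labelled library, and to 104, 48.9 and 215 CPM in the spleen-labelled library. The 7 monocyte genes summed to 111, 138 and 63.5 CPM, and to 184, 134 and 209 CPM. Both spleen-labelled sums were highest at the high dose, where Saa3 was lowest. Markers of other cells moved with the groups of the liver-labelled library. The 6 erythroid genes summed to 426, 171 and 37.7 CPM in the vehicle, low dose and high dose neutrophil-like cells and the 6 early progenitor genes to 48.1, 38.3 and 3.8 CPM, the same order as Saa3. The 6 basophil genes ran the other way, at 0.753, 1.99 and 97.7 CPM. The part of these lists in the Saa3 result was not tested.

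In macrophage-like and monocyte-like cells Saa3 was higher at the low dose than in vehicle in both libraries. Macrophage-like cells of the spleen-labelled library (cluster 2, led by Arg1, Ccl8, Mmp12 and C1qb) had Saa3 at 141 CPM (115 to 171) in 51 vehicle cells, 8984 CPM (8817 to 9154) in 85 low dose cells and 1021 CPM (973 to 1071) in 82 high dose cells. The low dose level was 63.8-fold that of vehicle, a log2 interval of 5.71 to 6.29, and the high dose ratio was 2.86 on the log2 scale. Leaving out the barcode with most Saa3 UMIs gave 103, 8073 and 783 CPM, and at 500 UMIs 3.92%, 47.1% and 12.2% of cells held a Saa3 UMI. The low dose level was therefore not that of a single barcode. The liver-labelled macrophage-like cells (cluster 15, led by Vcam1, C1qa, Cd5l and Spic) had Saa3 at 188, 2518 and 114 CPM in 65, 58 and 64 cells. There the low dose value was 824 CPM without 1 barcode, and 6.15%, 12.1% and 3.12% of cells held a UMI.

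Monocyte-like cells had Saa3 at 1743, 5034 and 606 CPM in the liver-labelled library, from 161, 98 and 27 cells, and at 2089, 6639 and 4512 CPM in the spleen-labelled library, from 75, 79 and 40 cells. The low dose ratios were 1.53 and 1.67. At the high dose the ratios were -1.53 and 1.11, below vehicle in one library and above it in the other, and the spleen-labelled high dose value was 3016 CPM without 1 barcode. The share of cells with a UMI at 500 UMIs was 41%, 52% and 11.1%, and 41.3%, 59.5% and 35%. The spleen-labelled high dose share and summed level differed from vehicle in opposite directions, so no order is read from the share. Kupffer-like cells had Saa3 at 19.3, 3008 and 26.4 CPM, with 1 barcode behind most of the low dose value, which was 688 CPM without it. A higher low dose level was not particular to these classes. In the spleen-labelled library T cell-like cells were at 30.7 CPM in vehicle (2 UMIs) and 1250.5 CPM at the low dose. Endothelial-like cells there were at 150 and 426 CPM, and 4T1-like cells at 37.2 and 1135 CPM. In the liver-labelled library B cell-like cells were at 49.2 and 126 CPM, but T cell-like cells at 42.8 and 13.5 CPM. Over all groups, leaving out the richest barcode took these B cell-like cells from 64.4 to 35.2 CPM, so no order is read for them. It took the spleen-labelled T cell-like cells from 298 to 153 CPM and the endothelial-like cells from 176 to 106 CPM. The part of free RNA was not tested.

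Neutrophil transcripts also varied in the macrophage-like and monocyte-like cells. The 12 neutrophil markers summed to 1069, 6639 and 6215 CPM in the vehicle, low dose and high dose macrophage-like cells of the spleen-labelled library, and to 4647, 6781 and 2121 CPM in those of the liver-labelled library. In monocyte-like cells they summed to 12075, 18255 and 30981 CPM in the liver-labelled library and to 15910, 15586 and 20591 CPM in the spleen-labelled library. Per 1000 UMIs of S100a8 and S100a9, Saa3 in the macrophage-like cells came to 262, 1524 and 205 in the spleen-labelled library and to 42.4, 400 and 59.1 in the liver-labelled library. In neutrophil-like cells over all groups it came to 8.88 and 7.98, far below each of these. T cell-like cells over all groups, at 130 and 16.5, were also above neutrophil-like cells. A ratio above that of neutrophils thus does not give the source. The share of these Saa3 UMIs that came from neutrophil RNA was not tested.

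**Figure D5:**
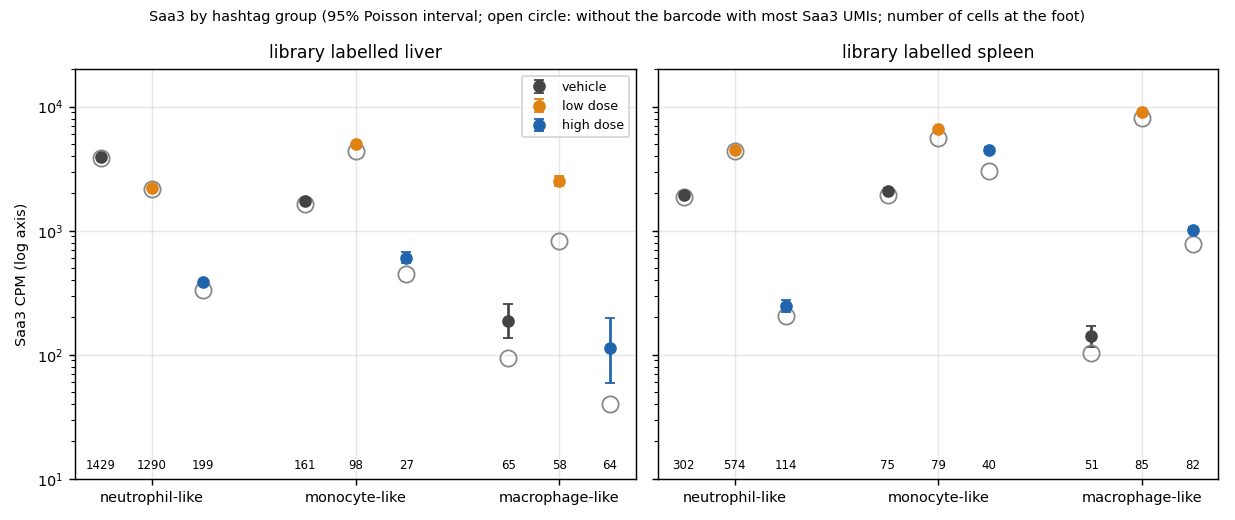
Saa3 in neutrophil-like, monocyte-like and macrophage-like cells by group and library, in CPM on a log axis with exact counting intervals, and open circles without the barcode with most Saa3 UMIs. Macrophage-like cells of the spleen-labelled library stand at 141, 8984 and 1021 CPM in the vehicle, low dose and high dose groups.

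Granulocyte progenitor-like cells had little Saa3. They were at 125, 197 and 35.1 CPM in 108, 98 and 43 cells of the liver-labelled library, and without the richest barcode of each group at 75.7, 87.3 and 17.7 CPM. The high dose group was lowest there too. Wfdc17 in these cells was at 1089, 572 and 2353 CPM, highest at the high dose, and Lrg1 at 1335, 1271 and 1374 CPM, nearly level. In the spleen-labelled library Saa3 was at 40 CPM in vehicle and 197 CPM at the low dose, and the 13 high dose cells held 3 UMIs.

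Lists of genes related to the 5 were counted in neutrophil-like cells, past 2-fold against vehicle, among their members with at least 10 UMIs. At the high dose 1.8% of all genes tested were higher and 19.2% lower in the liver-labelled library, and 5.03% and 10.1% in the spleen-labelled library. The protease inhibitors, which include the serpins, cystatins and Timp genes, had 2 of 9 tested genes higher and none lower in each library. Those calls rested on few UMIs, at most 50 at the high dose and 24 in vehicle, and only Spint1 was called in both libraries. Of 11 proteases of neutrophils and lysosomes, 1 was higher and 2 lower in the liver-labelled library, and none was higher and 3 lower in the spleen-labelled library. Other acute-phase genes gave no call among 5 in the former and 1 higher and 2 lower among 9 in the latter. Those calls rested on at most 9 UMIs at the high dose and 30 in vehicle. The other SAA genes had 1 of 1 lower and then 1 of 2 higher, the other WAP genes none of 1 and 1 of 2 lower. In the spleen-labelled library these calls were Saa2, with 29 UMIs at the high dose and 16 in vehicle, and Wfdc2, with 1 and 10. Saa2 and the acute-phase gene Hpx were among the leading genes of the hepatocyte-like cells there, and Wfdc2 of the 4T1-like cells. The part of free RNA in these calls was not tested. Receptors of SAA proteins gave no call among 6 and 5 genes, the TGF-beta receptors 1 of 3 lower and none of 3, and the genes of the inducing pathway (interleukin-6 and interleukin-1 signaling with Stat3, C/EBP and NF-kB feedback genes) 1 of 9 lower, and 1 higher and 1 lower of 9. That higher call rested on 12 UMIs at the high dose and 5 in vehicle. The median log2 ratio of this list was -0.71 and -0.42, beside -0.39 and -0.08 over all genes tested. Several lists have very few tested genes, so that 1 call is a large share of them.

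Of the granule genes of immature neutrophils, 1 of 7 was higher in each library, and it was the same gene. Olfm4, which encodes olfactomedin 4 of neutrophil granules, was at 243 CPM in vehicle and 628 CPM at the high dose in the liver-labelled library, a ratio of 1.37, and at 125 and 604 CPM in the spleen-labelled library, a ratio of 2.27. No other gene of these lists with at least 200 UMIs was past 2-fold at the high dose in one direction in both libraries. At the low dose 1.62% of all genes tested were higher and 4.87% lower in the liver-labelled library, and 4.32% and 4.81% in the spleen-labelled library. The acute-phase list then had 3 of 9 higher in the spleen-labelled library and none of 5 in the liver-labelled library. Named after their values were seen, Orm1 (orosomucoid 1, an acute-phase protein) was at 58.6 CPM in vehicle and 245 CPM at the low dose in the former, and Saa1 at 20.5 and 95.3 CPM. Both lay in the library and group where Saa3 was also higher. In the liver-labelled library, where Saa3 was lower at the low dose, Orm1 was at 52.3 and 99.4 CPM and Saa1 at 12.7 and 15.5 CPM. Neither gene was thus lower with Saa3 there. Also at the low dose, the other SAA genes had 1 of 2 and 2 of 2 higher, the other WAP genes 1 of 2 in each, and the protease inhibitors 3 of 11 and 1 of 8 lower. The WAP call was Wfdc2 in each library, with 74 and 80 UMIs at the low dose and 9 and 10 in vehicle. The part of free RNA was not tested here either. No protease was called in the liver-labelled library and 4 of 11 were lower in the spleen-labelled library. The remaining lists had at most 1 call per library at the low dose.

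Genes with the pattern most like each of the 5 were taken by Pearson correlation of log2 levels (with 10 CPM added) over 50 sums of cells (class and group in either library), among 8383 genes. Saa3 was closest to Il1b, which encodes interleukin-1 beta, at 0.82, then to Sirpb1b and Arg2 at 0.81. Wfdc17 was closest to Cd300lf at 0.93, then Pygl and Pilra at 0.92, and Wfdc21 to Ifitm6 and S100a8 at 0.96 and Lcn2 at 0.95. Lrg1 was closest to Mtus1 at 0.95, then Il1r2 and Cebpd at 0.90. Slpi was closest to Nupr1 at 0.84, then to Gapdh and Eif4ebp1 at 0.79. The sums share libraries and classes, so these are descriptions.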

How the data were processed

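Single cells of tumor-bearing mice were profiled in 2 droplet libraries, each mixing 3 hashtag groups. Raw UMI counts, not normalized, were deposited by the authors for each gene and hashtag in filtered matrices, made on mm10 with Cell Ranger, version 6.0.0 per the submitters' processing notes and 5.0.0 per the matrix header. No barcode had fewer than 500 UMIs, and mitochondrial UMIs reached 98.9% and 99.0% of a barcode, so no such filter had been used.

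Hashtags were called with HTODemux (Seurat 5.3.0, quantile 0.99) and singly tagged barcodes were retained. The libraries were processed separately in R 4.3.3, with SCTransform (sctransform 0.4.2), 30 principal components and clustering at resolution 0.8, on 2995 variable features without the 5 genes. Clusters took an X-like name if 3 or more of a list's markers were raised by a log2 fold of 1 against the rest of the library (10 CPM added) and found in 20% of cells, unless another list had more markers in the leading 10 genes, thresholds set after seeing the data. A cluster also stayed unnamed if lists that met this rule tied with more than 1 leading marker each, a rule likewise set after seeing the data. The same held if it had no leading marker and its median UMIs were under 1/3 of the library's. Doublets between hashtags were removed. Scrublet (scanpy 1.11.5) called 234 barcodes in the liver-labelled library, 85 of them singly tagged and left out in an alternative, and 0 of 4830 in the spleen-labelled library, where it did not work.

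UMIs were summed per class and group and scaled to CPM, with exact Poisson intervals. Ratios carry exact conditional binomial intervals and shares Clopper-Pearson intervals, all at 95%. The ratio and its interval were run on simulated Poisson counts, which the interval assumes. That run cannot show how they hold for UMIs gathered in few cells, as those of Saa3 were. Shares of cells were taken after thinning each cell to 500 UMIs at random with a fixed seed. The packages were scipy 1.17.1, pandas 2.3.3 and numpy 2.4.6 under Python 3.11.15. Genes were called past 2-fold, given at least 10 UMIs in the compared groups together. With 1 pool per group there was no test. The genes and lists were chosen with earlier results of these data known. Related genes were named by value where they had at least 200 UMIs and were past 2-fold at the high dose in one direction in both libraries, at most 4 per list. Alternatives changed the hashtag caller, filter, clustering, scaling, class and thinning. Those that weight clusters by vehicle UMIs, leave out the low dose cluster, or leave out the barcode with most UMIs were added after seeing the data. Protein sequences and the promoter of Wfdc21 were not used here.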

Additional observations from a re-analysis of the deposited data

Results flagged for a closer look

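Saa3 in neutrophil-like cells went in opposite directions at the low dose, with a log2 ratio to vehicle of -0.82 in the liver-labelled library and 1.23 in the spleen-labelled library, 2.05 apart. The difference itself was not tested, and without the low dose cluster of the spleen-labelled library its ratio there was 0.13. Saa3 in monocyte-like cells went in opposite directions at the high dose, at -1.53 and 1.11, 2.64 apart, also not tested, from 27 and 40 high dose cells. Wfdc21 in macrophage-like cells had high dose ratios of -2.83 and 1.47, 4.30 apart and not tested, and the former rested on 15 UMIs in vehicle and 1 at the high dose.

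Barcodes without a hashtag call entered no comparison. Slpi stood at 354 CPM in the 540 of the liver-labelled library, against 241 CPM in all vehicle barcodes, and at 398 CPM in the 1627 of the spleen-labelled library, against 299 CPM. Low dose and high dose barcodes were at 313 and 132 CPM in the former. They were at 508 and 963 CPM in the latter, both above the barcodes without a call. S100a8 and S100a9 together were at 33440 and 24938 CPM in the barcodes without a call, against 185948 and 126564 CPM in the vehicle barcodes.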

How the results depend on the processing

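Saa3 was the 1 gene past 2-fold lower at the high dose in both libraries under all 13 alternatives run for that count. Its high dose log2 ratio ran from -3.74 to -3.01 in the liver-labelled library and from -3.52 to -2.36 in the spleen-labelled library over alternatives of caller, filter, clustering, scaling, class and thinning, and was -0.67 and -0.12 when clusters were weighted by vehicle UMIs, which leaves out the clusters with under 20 high dose cells. The low dose count of 1 in the spleen-labelled library became 0 with a mean over cells, with cells thinned to 500 UMIs and without the low dose cluster. The median ratio of the 5 genes at the high dose in the liver-labelled library was -0.17 with a mean over cells, 0.22 without the 20 most abundant genes and 0.44 with median-of-ratios scaling. At the low dose in that library it was 0.26 with a mean over cells, 0.23 without those genes, 0.26 with median-of-ratios scaling, 0.12 with granulocyte progenitor-like clusters and 0.29 after thinning. In the spleen-labelled library it was 0.27 at the high dose with granulocyte progenitor-like clusters. At the low dose there it was 0.30 with MULTIseqDemux, 0.32 with the dominant hashtag, 0.32 with the cell filter, 0.31 with a mean over cells, 0.30 with median-of-ratios scaling, 0.32 with granulocyte progenitor-like clusters and 0.36 after thinning. The count of genes with a lower share of cells at the high dose in the spleen-labelled library was 1 without thinning, in place of 2. Requiring 200 UMIs lowered the background shares of genes past 2-fold. At the high dose they were 0.338% higher and 7.5% lower in the liver-labelled library and 0.312% and 3.74% in the spleen-labelled library, and at the low dose 0.0749% and 0.655%, and 0.794% and 0.159%. The rank of neutrophil-like cells among classes became 2 with vehicle cells alone for Slpi in the liver-labelled library (from 3), for Saa3 in the spleen-labelled library (from 3) and for Slpi there (from 4), the last being 3 without the richest barcode of each class. Wfdc17 at the high dose turned from -0.42 to 0.13 and from -0.45 to 0.02 at vehicle cluster weights, over 3 of 6 and 2 of 5 clusters. It turned to 0.14 in the spleen-labelled library with granulocyte progenitor-like clusters. Other than where a change follows from the cells left out, the cause was not tested. Of 191 summary values under alternatives 159 stayed within the range set for no change, as did 175 of 290 values of single genes. No paired analysis was possible because each group was 1 pool per library. The Scrublet alternative left out no barcode in the spleen-labelled library. The smallest classes limit depth, with under 20 cells per group for several of them.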
